A study of Mus musculus with 6 samples.

Results

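The 10 genes described here encode 7 matrix metalloproteinases (Mmp2, Mmp8, Mmp9, Mmp12, Mmp13, Mmp14 and Mmp19) and 3 tissue inhibitors of metalloproteinases (Timp1, Timp2 and Timp3). They were taken by symbol from the list of 32285 mouse genes that the series counts, and all 10 were found. The samples were orthotopic pancreatic tumours in C57BL/6 mice, started by injecting KPC cells (a mouse pancreatic cancer line), and the cells bore an MLKL overexpression construct (OE-MLKL) or the vector alone (OE-Vector). Tumours were taken 4 weeks after injection, dissociated and profiled cell by cell with droplet RNA sequencing of transcript 3' ends. The labels name 3 tumours per group, and count matrices of 4 libraries were analysed here, OE-Vector 1 and OE-MLKL 1, 2 and 3, while OE-Vector 2 and 3 were not analysed here. MLKL is the pseudokinase that breaks the plasma membrane in necroptosis, and both groups carried a KPC line in a host with an intact immune system. Whether each construct was 1 clone or a pool was not given in the sources used here.

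Matrix metalloproteinases are zinc enzymes that cut collagen, elastin, gelatin and many surface proteins. Most are secreted as inactive precursors and are opened by other proteases, and TIMPs bind the active site and stop them. Macrophages, neutrophils and fibroblasts are known sources in tumours, and the study asked, among other things, about metalloproteinases that ride on DNA traps released by macrophages.

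A cell was placed in 1 of 9 classes (neutrophil, macrophage, monocyte, dendritic, T/NK, B, cancer, stromal and endothelial) when it carried at least 3 of that class's marker genes and passed the score of the gate. Of 63182 cells, 54650 fell in the 9 classes, 5545 in none and 2936 in 2 at once. The labels call the material cancer cells, but the libraries held whole dissociated tumours. Neutrophils were 4813 to 6293 per library, cancer cells 2647 to 6618 and macrophages 1730 to 2703, with more cancer cells than neutrophils in OE-MLKL 1 and 2 and fewer in the other libraries. Stromal cells were 21 to 47 and endothelial cells 2 to 44 per library, so their levels rest on few cells. The 2 endothelial cells of OE-MLKL 3 were what doublet removal left of 32. When the same cells were clustered, no cluster was mainly monocytes. Of the monocyte-gated cells, 469, 176 and 126 lay in the macrophage clusters 9, 8 and 17 and 149 in the neutrophil cluster 4. The monocyte gate took 264, 318, 376 and 145 cells in OE-Vector 1 and OE-MLKL 1, 2 and 3. Most of them thus lay in macrophage clusters, and most of the rest in neutrophil clusters. The monocyte class may therefore hold many macrophages and neutrophils. Levels are given in CPM, a gene's UMIs per 1000000 UMIs of that class in that library, each UMI being 1 captured transcript. In a sum over cells, fewer producing cells and less RNA per cell cannot be told apart.

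The libraries did not separate by their labels. Total UMIs were 150591289 to 169978362 per library, 73 to 134 cell barcodes were shared by any pair of libraries, and the construct's own gene, Mlkl, stood in cancer cells at 16.5 CPM under the label OE-Vector 1 and at 8.84, 13.1 and 19.8 under OE-MLKL 1, 2 and 3. Whether the construct's transcript reaches the counted 3' end was not given in the sources used here, so Mlkl does not check the labels. In neutrophils, macrophages and T/NK cells OE-MLKL 1 was most like OE-MLKL 2, and OE-Vector 1 was most like OE-MLKL 3. In neutrophils the correlation across 9090 genes was 0.974 between OE-MLKL 1 and 2, 0.959 between OE-Vector 1 and OE-MLKL 3, and 0.895 between OE-Vector 1 and OE-MLKL 1. In cancer cells OE-Vector 1 was about as like OE-MLKL 2 (0.9584) as OE-MLKL 3 (0.9574), and in monocytes it was least like OE-MLKL 3 (0.871, against 0.874 and 0.914 with OE-MLKL 1 and 2). In B cells, the class with fewest cells of those correlated, all pairs were between 0.614 and 0.764. The median UMIs of a neutrophil split the same way, at 1198 for OE-Vector 1 and 1415 for OE-MLKL 3 against 741 and 763 for the other libraries. With 1 OE-Vector library against 3, an exact permutation test of a single value cannot go below p = 0.25, and the fits across all genes draw their spread from the OE-MLKL libraries alone. For this reason each result below is given with all 4 libraries. The label names are used throughout as the labels give them.

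Mmp13, Mmp12 and Mmp8 are neighbours in the genome, and they are shown first because they were the members of smallest p between the groups in macrophages. On mouse chromosome 9 (GRCm38, GENCODE annotation, plus strand) Mmp13 (ENSMUSG00000050578) lies at chr9:7272514-7283331, Mmp12 (ENSMUSG00000049723) at chr9:7344381-7369499 and Mmp8 (ENSMUSG00000005800) at chr9:7558456-7568485. The span from Mmp13 to Mmp8 is 295972 bases and holds 6 protein-coding genes, all of them metalloproteinases, the others being Mmp1b, Mmp3 and Mmp10. The start windows below run from 250 bases before to 50 bases after an annotated start and were copied from RefSeq on GRCm38.p6, where Mmp12 has 2 such windows. Capitals mark TGANTCA, the letters to which AP-1 factors can bind, searched on both strands.
Mmp13, chr9:7272264-7272563: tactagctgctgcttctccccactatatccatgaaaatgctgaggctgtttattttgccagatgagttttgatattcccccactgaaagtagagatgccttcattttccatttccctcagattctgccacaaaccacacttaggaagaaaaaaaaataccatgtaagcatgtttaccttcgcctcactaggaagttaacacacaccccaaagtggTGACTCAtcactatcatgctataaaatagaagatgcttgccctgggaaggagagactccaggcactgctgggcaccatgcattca
Mmp12, start 1, chr9:7344147-7344446: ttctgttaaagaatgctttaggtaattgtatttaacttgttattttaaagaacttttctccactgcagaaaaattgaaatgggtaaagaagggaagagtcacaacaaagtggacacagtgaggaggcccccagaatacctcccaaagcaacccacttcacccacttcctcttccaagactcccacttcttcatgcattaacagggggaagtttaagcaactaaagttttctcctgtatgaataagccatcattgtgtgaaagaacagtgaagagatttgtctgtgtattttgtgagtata
Mmp12, start 2, chr9:7347124-7347423: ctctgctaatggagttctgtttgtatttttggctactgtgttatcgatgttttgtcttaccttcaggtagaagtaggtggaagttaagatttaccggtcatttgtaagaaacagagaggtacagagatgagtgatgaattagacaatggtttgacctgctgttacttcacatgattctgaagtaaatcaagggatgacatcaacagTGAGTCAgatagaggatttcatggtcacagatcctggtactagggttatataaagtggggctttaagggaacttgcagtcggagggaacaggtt
Mmp8, chr9:7558179-7558478: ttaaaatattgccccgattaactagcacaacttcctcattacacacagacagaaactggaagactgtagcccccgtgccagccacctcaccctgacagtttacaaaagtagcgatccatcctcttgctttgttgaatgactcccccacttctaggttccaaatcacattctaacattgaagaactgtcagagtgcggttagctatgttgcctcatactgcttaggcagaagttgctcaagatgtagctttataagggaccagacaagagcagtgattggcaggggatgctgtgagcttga

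TGANTCA occurred once in the Mmp13 window, as TGACTCA, and once in the window of Mmp12 start 2, as TGAGTCA, and was absent from the window of Mmp12 start 1 and from that of Mmp8. It was also absent from the windows of Mmp14, Timp1, Timp2 and Timp3, the other members with a window, so it stood in 2 of the 7 members that had one. Among 32851 start windows of the same length, 7.808% held it. TATAAA, the TATA box letters, stood in the windows of Mmp13, Mmp12 start 2 and Mmp8, against 13.616% of all windows. AGGAAG, a core to which ETS factors can bind, was searched likewise, and 35.351% of all windows held it. It stood in the windows of Mmp13, Mmp12 start 1, Mmp8, Mmp14, Timp1 and Timp3. In Mmp12 start 1 and Mmp8 it was on the opposite strand, printed as CTTCCT. A match in such a window is a description of letters and not evidence of binding.

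The other members lie apart. Mmp2 (ENSMUSG00000031740) is at chr8:92827291-92853420, Mmp9 (ENSMUSG00000017737) at chr2:164940780-164955850, Mmp14 (ENSMUSG00000000957) at chr14:54431612-54445364 and Mmp19 (ENSMUSG00000025355) at chr10:128790910-128800824. Timp1 (ENSMUSG00000001131) is at chrX:20870166-20874735, Timp2 (ENSMUSG00000017466) at chr11:118301069-118355740 and Timp3 (ENSMUSG00000020044) at chr10:86300372-86349506. Timp1 and Timp3 lie inside the synapsin genes Syn1 and Syn3 on the opposite strand, Timp2 overlaps Cep295nl on the same strand, Mmp12 overlaps Mmp1b, and Mmp19 overlaps Tmem198b and the antisense gene Gm47093. Which strand setting was used in counting was not given in the sources used here, so reads of such pairs may be shared, and Mmp1b had 0 UMIs in the macrophages of each library.

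**Figure D1:**
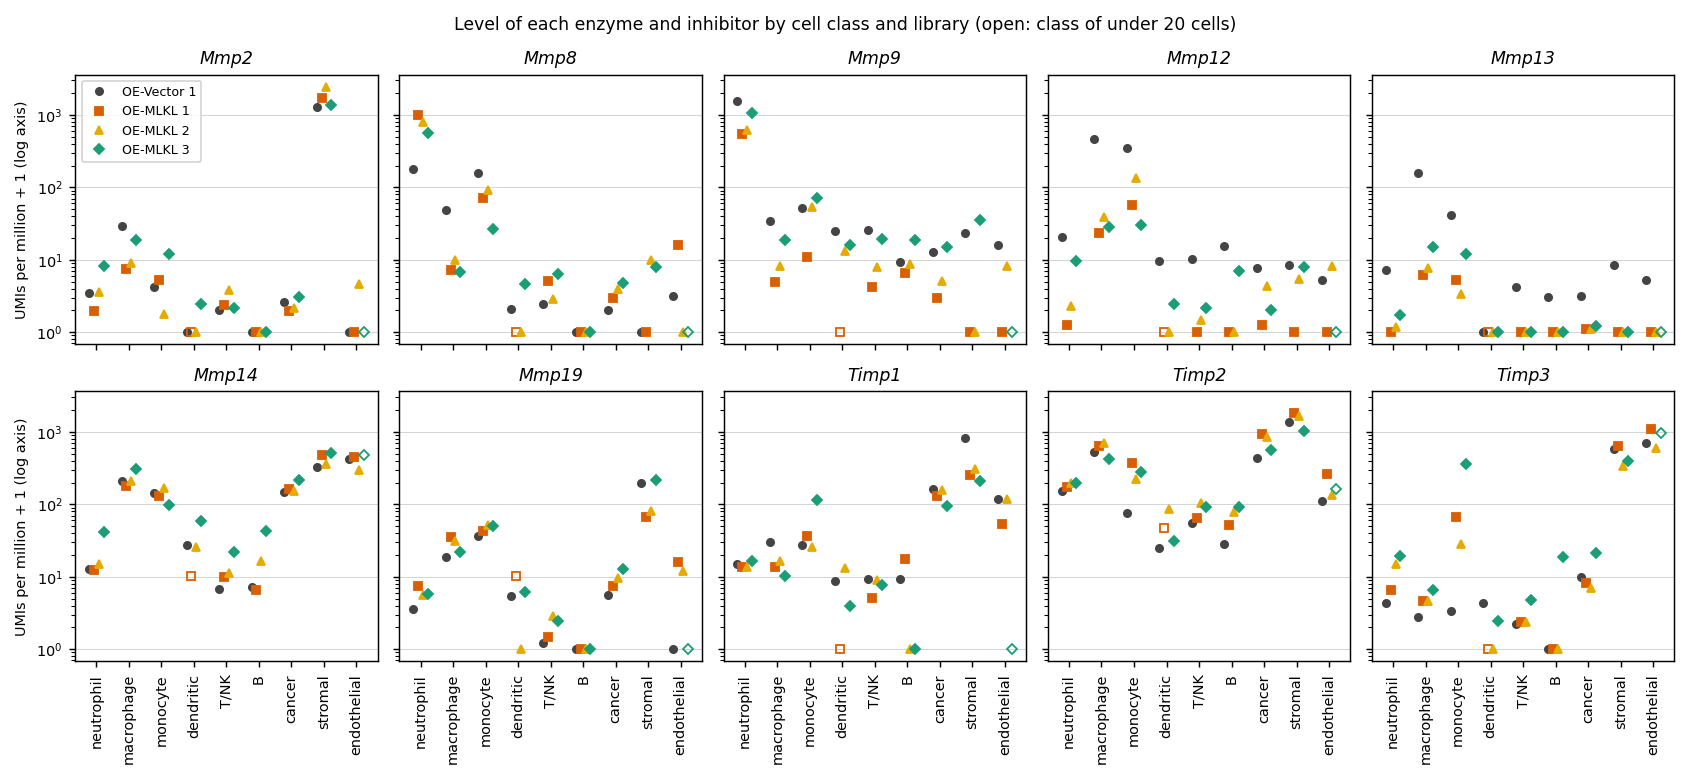
Level of each of the 10 genes (CPM + 1, log axis) in the 9 cell classes, 1 point per library, with open points for classes of under 20 cells. Mmp8 and Mmp9 stand highest in neutrophils, Mmp2 in stromal cells, and Mmp12 and Mmp13 of OE-Vector 1 stand above the OE-MLKL points in macrophages.

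Among the gelatinases, Mmp9, which neutrophils store in granules, was mainly a neutrophil transcript. Its level there was 1568 CPM in OE-Vector 1 (95% exact Poisson interval 1540 to 1596, counting error only) against 551, 624 and 1071 in OE-MLKL 1, 2 and 3. The OE-Vector library was the highest, OE-MLKL 3 came next, and OE-MLKL 1 and 2 were lowest. Neutrophils held 74.4% to 80.8% of all Mmp9 UMIs in cells of each library. No other class reached 70 CPM, the next being monocytes at 51.3 in OE-Vector 1 and 10.0, 52.6 and 69.2 in the OE-MLKL libraries, and the neutrophil and monocyte ranges did not overlap.

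In droplet data free RNA can put UMIs of a gene into cells that do not make it. Barcodes of at most 100 UMIs carried Mmp9 at 179, 34.7, 57.2 and 138 CPM in OE-Vector 1 and OE-MLKL 1, 2 and 3, in the same order of libraries as the neutrophils. Thinned to 1000 UMIs per cell, Mmp9 was seen in 69.2% of OE-Vector 1 neutrophils and in 40.0%, 38.9% and 58.8% of those of OE-MLKL 1, 2 and 3, against 0.25% to 1.63% of cancer cells, while unthinned it was seen in 74.9%, 31.6%, 34.8% and 70.5% of neutrophils and in 2.79% to 25.2% of the deeper cancer cells. Thinning leaves out shallower cells, and 4267, 1044, 1285 and 5353 neutrophils remained.

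Mmp2, the gelatinase of fibroblasts, was highest in stromal cells, at 1274 CPM in OE-Vector 1 against 1730, 2444 and 1370 in OE-MLKL 1, 2 and 3. All 3 OE-MLKL libraries were above OE-Vector 1, by a margin that for OE-MLKL 3 was small beside their own spread (SD 546, n = 3). The stromal gate took unlike shares of the collagen-led cluster described below. Over that whole cluster OE-MLKL 1 and 3 were below OE-Vector 1 in Mmp2. Macrophages came second at 27.9, 6.52, 7.97 and 18.0, below every stromal value. In macrophages OE-Vector 1 was the highest and OE-MLKL 3 the next.

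The collagenase Mmp8, kept in neutrophil granules, was also highest in neutrophils, where it stood at 178 CPM in OE-Vector 1 (95% exact Poisson interval 169 to 188) and at 992, 806 and 556 in OE-MLKL 1, 2 and 3. All 3 OE-MLKL libraries lay above OE-Vector 1, and OE-MLKL 3 was the nearest to it. Neutrophils held 84.4%, 80.7% and 89.8% of the Mmp8 UMIs of the OE-MLKL libraries but 51.5% of those of OE-Vector 1, where macrophages held 29.1%. Thinned to 1000 UMIs, 11.9% of OE-Vector 1 neutrophils and 55.4%, 45.1% and 26.2% of those of the OE-MLKL libraries had an Mmp8 UMI, against 0.08% to 0.37% of cancer cells. Before thinning the shares in neutrophils were 13.1%, 42.1%, 33.4% and 32.0%.

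Mmp13, the collagenase that many tumour and bone cells make, was here a macrophage transcript. Its level in macrophages was 155 CPM in OE-Vector 1 (95% exact Poisson interval 149 to 162) against 5.16, 6.63 and 13.9 in OE-MLKL 1, 2 and 3, and macrophages held 71.8% to 82.8% of the Mmp13 UMIs of each library. Monocytes came second at 41.1, 4.31, 2.36 and 11.1. In both classes the OE-Vector library was far above the others and OE-MLKL 3 was the highest of the OE-MLKL libraries.

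Mmp12, macrophage elastase, stood in macrophages at 468 CPM in OE-Vector 1 (95% exact Poisson interval 458 to 479) and at 22.6, 38.3 and 26.9 in OE-MLKL 1, 2 and 3. Monocytes had 349 in OE-Vector 1 and 56.0, 135 and 29.7 in the OE-MLKL libraries, a range that overlapped that of macrophages, so neither class ranked first beyond the spread. OE-Vector 1 was the highest in both classes. Macrophages held 62.6%, 42.3%, 24.6% and 47.4% of Mmp12 UMIs, and cells that no gate took held another 26.7%, 31.1%, 39.6% and 25.9%. T/NK cells, which should lack the gene, had at most 9.24 CPM, in OE-Vector 1, where free RNA carried 111 against 6.12, 15.3 and 11.9 in the OE-MLKL libraries.

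Mmp14, the membrane-bound enzyme that activates proMmp2, was found in most classes. Endothelial cells had 424, 443, 299 and 480 CPM in OE-Vector 1 and OE-MLKL 1, 2 and 3, and stromal cells 331, 474, 355 and 510, ranges that overlapped. The endothelial value of OE-MLKL 3 was 3 UMIs in 2 cells (95% exact Poisson interval 98.9 to 1402). Macrophages followed at 208, 177, 209 and 309 and cancer cells at 148, 161, 153 and 213, again overlapping, although macrophages were above cancer cells within each of the 4 libraries. Cancer cells, the class with the most UMIs per cell, held 66.4% to 80.3% of the Mmp14 UMIs. OE-MLKL 3 was the highest library in stromal cells, macrophages and cancer cells alike.

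Mmp19, a secreted enzyme that cuts basement membrane proteins, was highest in stromal cells at 197, 66.1, 80.9 and 216 CPM, with OE-MLKL 1 and 2 low and the other libraries high. Monocytes had 35.5, 42.3, 50.3 and 49.4 and macrophages 17.5, 34.2, 30.4 and 20.9, and the ranges of the 3 classes did not overlap. In monocytes and macrophages OE-Vector 1 was the lowest library.

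**Figure D2:**
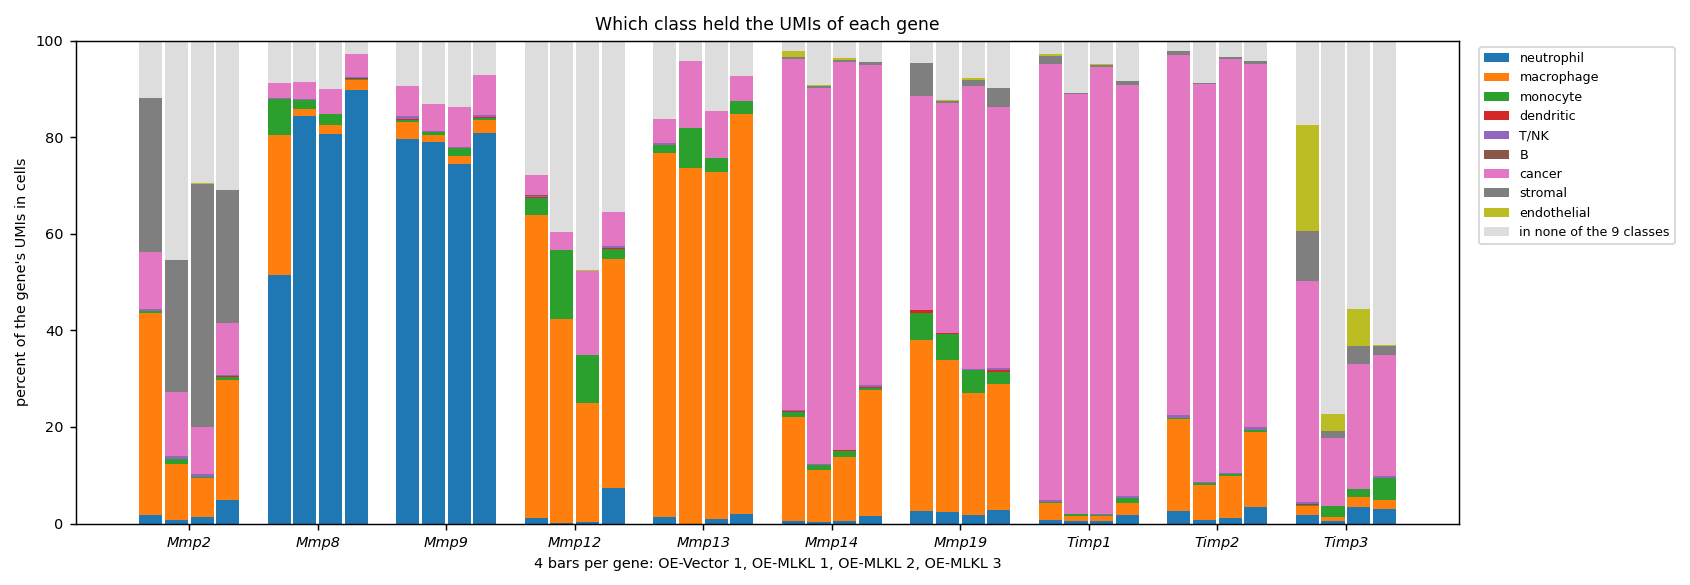
Share of all UMIs of each gene that fell in each cell class, as percent of the gene's UMIs in cells, with 4 bars per gene for OE-Vector 1 and OE-MLKL 1, 2 and 3. Neutrophils hold most Mmp8 and Mmp9, macrophages most Mmp13, cancer cells most Mmp14, Timp1 and Timp2, and the light grey part, cells in none of the 9 classes, is largest for Timp3 in OE-MLKL 1.

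Among the inhibitors, Timp1, a secreted TIMP that also acts as a growth signal, was highest in stromal cells at 812 CPM in OE-Vector 1 against 253, 310 and 209 in OE-MLKL 1, 2 and 3. OE-Vector 1 was clear above the others, on 27 stromal cells. In cells of the collagen-led cluster described below that no gate took, Timp1 was at 376, 448, 841 and 522 CPM, with OE-Vector 1 lowest. These were 3, 107, 44 and 43 cells, with 13 Timp1 UMIs in OE-Vector 1. In cells of that cluster that fell in 2 classes, Timp1 was at 795, 481, 245 and 451 CPM, with OE-Vector 1 highest. Over the whole cluster OE-Vector 1 was also the highest library in Timp1. Cancer cells had 161, 129, 156 and 92.9 and held 85.2% to 92.6% of Timp1 UMIs. OE-Vector 1 was the highest and OE-MLKL 3 the lowest of the cancer values.

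Timp2, which both inhibits Mmp2 and helps Mmp14 to activate it, was highest in stromal cells at 1363, 1829, 1649 and 1041. Cancer cells had 429 in OE-Vector 1 and 938, 851 and 555 in the OE-MLKL libraries, and macrophages 521, 647, 707 and 419, with overlapping ranges. Cancer cells held 74.6% to 85.7% of the UMIs. In cancer cells OE-Vector 1 was the lowest and OE-MLKL 3 the nearest to it. Free RNA carried Timp2 at 394, 766, 675 and 393 CPM, with OE-MLKL 1 and 2 above the other libraries.

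Timp3, the TIMP that stays bound to the matrix, was highest in endothelial cells, at 708, 1103, 601 and 960, the last from 2 cells, and in stromal cells, at 573, 628, 341 and 394. These ranges overlapped. The 9 classes held 82.5% of Timp3 UMIs in OE-Vector 1 but 22.7%, 44.5% and 36.9% in OE-MLKL 1, 2 and 3. Beside the gates stood a cluster of 442 cells led by the collagen genes Col1a2, Col3a1 and Col1a1, with Dcn and Timp3 itself among its 5 leading genes, of which the stromal gate took 120 and no gate took 197. The stromal markers held none of Col1a1, Col1a2, Col3a1 and Dcn, and the cluster is described only by its leading genes.

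The collagen-led cluster carried most of the Timp3 and Mmp2 in the OE-MLKL libraries. Its 43, 168, 119 and 112 cells had Timp3 at 977, 1979, 1697 and 3007 CPM and held 38.3%, 81.1%, 67.0% and 79.1% of the library's Timp3. They had Mmp2 at 842, 254, 1057 and 548 and held 46.4%, 75.6%, 81.3% and 60.2% of it. For Timp3 OE-Vector 1 was the lowest library, and for Mmp2 OE-MLKL 1 was. The stromal gate took 27, 21, 46 and 26 of these cells, so stromal levels cover unlike parts of the cluster in the libraries. Timp3 led this cluster, so its height there against other cells is no separate result.

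The 3 largest classes were compared in 1 fit with library as a block (edgeR quasi-likelihood test, Benjamini-Hochberg adjustment over 14838 genes). Between neutrophils and macrophages 9 of 10 members differed, 3 higher and 6 lower in neutrophils, against 69.0% of all genes tested. Mmp9 was higher in neutrophils by 6.38 ± 0.31 on the log2 scale (SE, adjusted p = 5.23e-08) and Mmp8 by 5.51 ± 0.93 (adjusted p = 0.000285), and Mmp13 was lower by a log2 difference of -4.36 ± 0.23 (adjusted p = 8.66e-08). The other member higher in neutrophils was Timp3 (1.58 ± 0.35, adjusted p = 0.00184). Of its neutrophil UMIs, 66 of 74 in OE-MLKL 2 and 98 of 180 in OE-MLKL 3 lay in 1 and 4 cells of the collagen-led cluster. Outside that cluster Timp3 was at 3.39, 5.66, 1.51 and 8.49 CPM in neutrophils and at 1.80, 2.15, 1.34 and 4.46 in macrophages. Timp1 gave -0.0018 ± 0.25 (adjusted p = 0.995). Macrophages and cancer cells differed in 9 of 10 members, 7 higher and 2 lower in macrophages, against 68.2% of genes, with Mmp13 at 6.22 ± 0.20 (adjusted p = 1.75e-09), Mmp12 at 5.37 ± 0.63 (adjusted p = 1.55e-05), Timp1 at -2.82 ± 0.23 (adjusted p = 7.52e-07) and Timp2 at 0.03 ± 0.19 (adjusted p = 0.913). Neutrophils and cancer cells differed in 8 of 10, 5 higher and 3 lower in neutrophils, against 80.2% of genes, and the 3 that were lower were Mmp14 (-2.85 ± 0.23), Timp1 (-2.82 ± 0.24) and Timp2 (-1.48 ± 0.20). Most genes of any kind differed between these classes, so the counts alone do not set the members apart. Free RNA was not subtracted in this fit. Its estimated share of UMIs was 12.3% to 22.3% in neutrophils, 8.79% to 10.3% in macrophages and 4.54% to 6.70% in cancer cells. In neutrophils every member but Mmp8 and Mmp9 stood below its free RNA level in each library. Mmp12 there was at 19.6, 0.246, 1.32 and 8.75 CPM, against 111, 6.12, 15.3 and 11.9 in free RNA. The part of free RNA in these differences was not tested. The median log2 difference of the members was -1.74, 1.60 and 0.92 in these 3 comparisons, against 0.02, -0.05 and -0.15 over all genes tested.

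**Figure D3:**
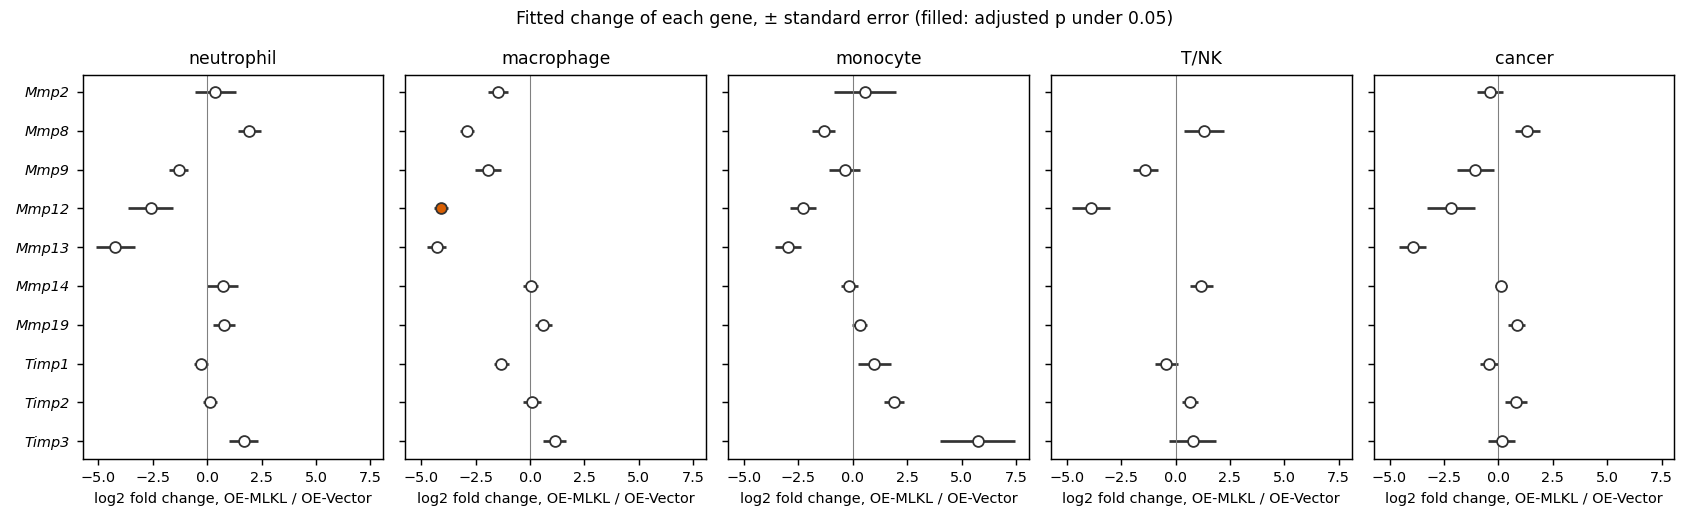
Fitted log2 fold change of OE-MLKL against OE-Vector with its standard error for each gene in 5 classes (horizontal axis, 1 panel per class), filled where the adjusted p was under 0.05. The filled point is Mmp12 in macrophages at -4.11, with Mmp13 at -4.29 and Mmp8 at -2.89 open in the same panel.

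OE-MLKL was then set against OE-Vector, as the libraries are labelled, within each class. In macrophages, Mmp12 was lower in the OE-MLKL libraries (mean 29.3 ± 8.13, SD, n = 3, against 468 CPM in OE-Vector 1), a log2 fold change of -4.11 ± 0.33 (edgeR, adjusted p = 0.0231), and was the only member called of 10 tested, against 0.0222% of 13543 genes, which is 3 genes. Mmp13 (-4.29 ± 0.44, adjusted p = 0.0659) and Mmp8 (-2.89 ± 0.31, adjusted p = 0.0783) did not pass. Both were lower in each OE-MLKL library than in OE-Vector 1, and so were Mmp2, Mmp9 and Timp1. Free RNA carried Mmp9 at 179, 34.7, 57.2 and 138 CPM, in the same order of libraries as macrophages at 33.5, 3.89, 7.16 and 17.6. For Timp1 it carried 104, 100, 109 and 75.8, against 28.9, 12.8, 15.3 and 9.36 in macrophages. Free RNA was an estimated 8.79% to 10.3% of macrophage UMIs. With it subtracted 6 of 10 members were still lower and none passed, against 0 of 12839 genes. With DESeq2, Mmp12, Mmp13 and Mmp8 passed, against 0.487% of genes, and with limma-voom no member did, against 0 of 13543 genes. The median of the 10 members was -1.39, against 0.04 over all genes. Without OE-MLKL 2 the Mmp12 fold change was -4.36, further from 0 than with all libraries. Mmp12 did not pass in that fit, nor did any other gene. Without OE-MLKL 1 the fit called 5 members and without OE-MLKL 3 it called 6, Mmp12, Mmp13 and Mmp8 among them both times, in fits that called 162 of 13611 and 442 of 12923 genes, each from 1 residual degree of freedom. With clusters in place of gates the Mmp12 value was -3.15 (adjusted p = 0.361), and over all alternatives its adjusted p ranged from 4.25e-21 to 0.361.

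Neutrophil markers in macrophages did not follow Mmp8. The 12 neutrophil markers summed to 613 CPM in OE-Vector 1 macrophages and to 505, 757 and 932 in those of OE-MLKL 1, 2 and 3, with 1 of the 12 lower in every OE-MLKL library, 4 higher and none at 0 throughout, though Ly6g was at 0 in some. OE-Vector 1 was second lowest by this sum while it had the most Mmp8. The 12 monocyte markers summed to 873 CPM in OE-Vector 1 macrophages and to 1698, 2069 and 1035 in the OE-MLKL libraries, with 5 higher and 3 lower in every OE-MLKL library and none at 0. Their part in the macrophage values was not tested.

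The Mmp12 of the gated macrophages came from few cells. In OE-Vector 1, 132 of 1730 macrophages (7.63%) had 10 or more Mmp12 UMIs, 1 cell had 319, and the top 5% of cells held 82.6% of the UMIs. In OE-MLKL 1, 2 and 3 the cells with 10 or more were 7, 8 and 15. Thinned to 1000 UMIs, 9.84% of OE-Vector 1 macrophages (95% exact binomial interval 8.46% to 11.3%, counting error only) and 0.59%, 1.52% and 1.26% of those of the OE-MLKL libraries had an Mmp12 UMI, against 0.75% of T/NK cells in OE-Vector 1 and at most 0.18% in the others, and before thinning 23.8%, 1.61%, 3.78% and 3.85% of macrophages did. Median depth was 8745 UMIs per macrophage in OE-Vector 1 against 4168, 4896 and 7115 in OE-MLKL 1, 2 and 3.

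A cluster of 553 cells, singled out after its values were seen, was led by Mmp12, with Saa3, Pf4, Arg1, Hmox1, Fabp5 and Mmp13 next. It held 369 cells of OE-Vector 1 and 47, 86 and 51 of OE-MLKL 1, 2 and 3, of which the macrophage gate took 238, the monocyte gate 126 and no gate 169. It carried 82.9%, 61.2%, 58.5% and 44.5% of the Mmp12 of the libraries. Since Mmp12 defined the cluster, its size and Mmp12 level are given only as a description.

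The cluster split the macrophage values of the 3 neighbouring genes in unlike ways. Inside it, gated macrophages (183, 18, 16 and 21 cells) had Mmp12 at 3502, 1548, 1247 and 1413 CPM, and outside it at 79.6, 5.12, 26.6 and 16.3. Mmp13 was at 932, 206, 55.8 and 52.1 inside and at 55.9, 2.86, 6.15 and 13.6 outside. For both genes OE-Vector 1 was the highest library inside and outside alike. Mmp8 was at 377, 43.0, 55.8 and 19.5 inside, and at 5.82, 5.71, 8.41 and 5.74 outside, where OE-Vector 1 stood among the OE-MLKL libraries. Free RNA carried Mmp8 at 31.0, 42.7, 43.7 and 56.7 CPM and was an estimated 8.79% to 10.3% of macrophage UMIs. The part of free RNA in the values outside was not tested. Macrophage markers summed to 10411, 8239, 6309 and 9169 CPM inside and to 15563 to 18265 outside.

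**Figure D4:**
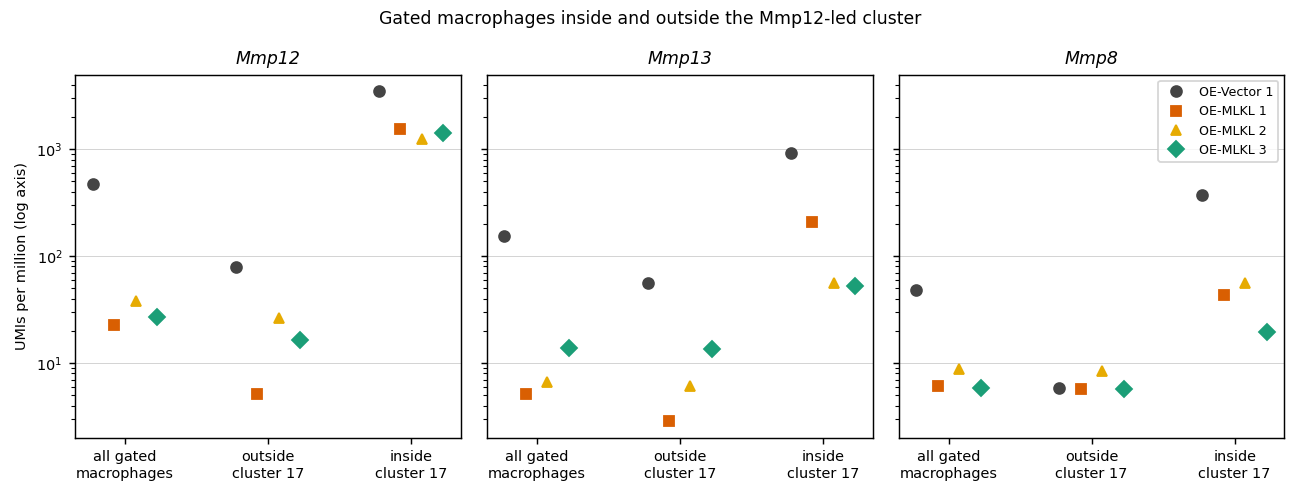
Mmp12, Mmp13 and Mmp8 (CPM, log axis) in all gated macrophages, in those outside and in those inside the Mmp12-led cluster 17, 1 point per library. OE-Vector 1 is highest for Mmp12 and Mmp13 in all 3 sets, and for Mmp8 outside the cluster it lies at 5.82, between 5.71 and 8.41 of the OE-MLKL libraries.

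Mmp13 was seen in a larger share of macrophages with Mmp12 than without in 4 of 4 libraries. In thinned OE-Vector 1 macrophages, 42.9% of cells with an Mmp12 UMI also had one of Mmp13, against 4.74% of cells without Mmp12. In OE-MLKL 1, 2 and 3 the shares were 15.4%, 6.25% and 5.88% against 0.227%, 0.483% and 0.867%, on 2 cells with both genes in each library. Unthinned, the shares were 48.5%, 11.1%, 10.0% and 11.5% with Mmp12 against 14.6%, 0.546%, 1.52% and 4.19% without, on 200, 4, 8 and 12 cells with both genes.

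Mmp12 also followed Arg1, the arginase of wound-type macrophages. Macrophages with an Arg1 UMI had Mmp12 at 559, 37.8, 47.6 and 36.5 CPM and those without at 26.7, 1.84, 7.40 and 8.16, higher with Arg1 in 4 of 4 libraries. The cells without Arg1 were shallower, with a median of 7106 UMIs against 9350 in OE-Vector 1, and the part of depth in this split was not tested. By Mrc1, the mannose receptor, Mmp12 was 472, 16.6, 25.6 and 21.2 with and 418, 63.6, 275 and 76.4 without a UMI, higher without it in the 3 OE-MLKL libraries only. Mmp14 differed little by Arg1, at 207, 180, 207 and 308 with and 215, 172, 213 and 310 without.

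In neutrophils no member of 10 passed (edgeR, 0 of 12672 genes, background 0%), although 1013 genes and 5 members had an unadjusted p under 0.05. Mmp8 was higher in the OE-MLKL libraries (mean 785 ± 219, SD, n = 3, against 178), with a log2 fold change of 1.93 ± 0.53 (adjusted p = 0.563), and Mmp9 lower (749 ± 282 against 1568), at -1.30 ± 0.44 (adjusted p = 0.587). DESeq2 called Mmp8 (adjusted p = 0.0131) and no other member, against 0.631% of genes, and limma-voom called no member, against 0 of 12672 genes. Without OE-MLKL 3, 4 members passed, among them Mmp8 (2.14, adjusted p = 0.000585) and Mmp9 (-1.62, adjusted p = 0.00153), in a fit that called 1862 of 11873 genes. Over all alternatives the adjusted p of Mmp8 ranged from 0.000585 to 0.9998 and its fold change from 1.69 to 2.14. The members' median was 0.24, against 0.04 over all genes.

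Neutrophil states differed between the libraries alongside Mmp8. Chil3, which young neutrophils also make, was at 52.5 CPM in OE-Vector 1 neutrophils and at 7225, 8176 and 2352 in OE-MLKL 1, 2 and 3, and it took most of the monocyte marker list, whose 12 genes summed to 1642 against 8277, 9453 and 4233. Of those 12 markers, 3 were higher and 4 lower in every OE-MLKL library than in OE-Vector 1, and none was at 0 throughout. OE-MLKL 3 again lay between OE-Vector 1 and the other libraries. The part of neutrophil state in the Mmp8 difference was not tested, but its values within sub-gates follow.

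**Figure D5:**
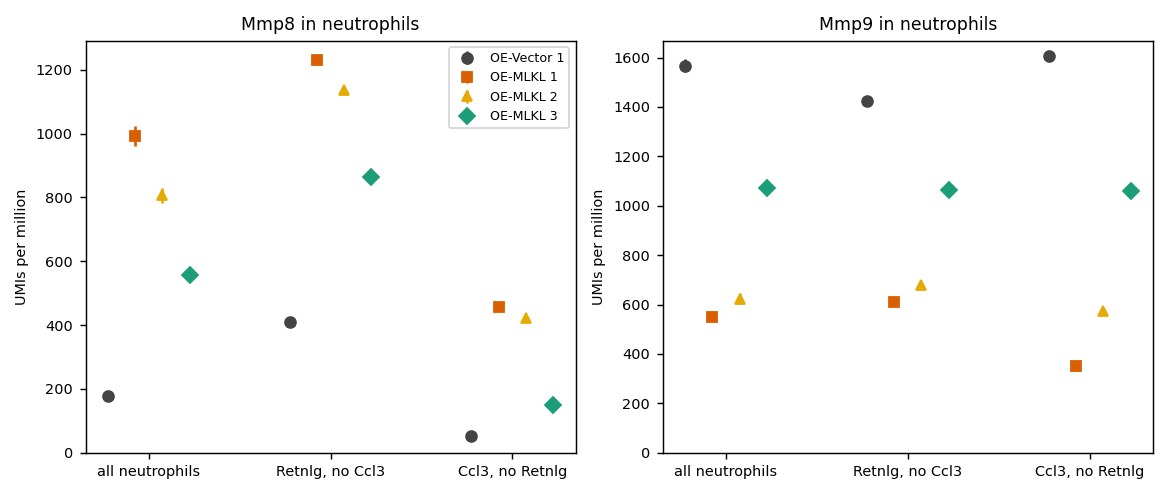
Mmp8 and Mmp9 (CPM) in all neutrophils and in neutrophils with a Retnlg UMI and no Ccl3 UMI or the reverse, 1 point per library, with bars in the first column for the 95% exact Poisson interval. OE-Vector 1 is the lowest library for Mmp8 and the highest for Mmp9 in all 3 sets.

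Neutrophils with a UMI of Retnlg, a gene of circulating neutrophils, and none of Ccl3, a chemokine of activated ones, had Mmp8 at 411 CPM in OE-Vector 1 and at 1232, 1138 and 864 in OE-MLKL 1, 2 and 3. Those with Ccl3 and no Retnlg had 51.3, 456, 421 and 149. Mmp8 was thus higher in the Retnlg set in 4 of 4 libraries, and OE-Vector 1 was the lowest library in either set. The Retnlg set held 1278 cells in OE-Vector 1 and 2895, 2887 and 2677 in the OE-MLKL libraries, and the Ccl3 set 2240 against 265, 723 and 1042.

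Mmp9 did not follow the same split. It stood at 1423, 611, 681 and 1065 in the Retnlg set and at 1605, 350, 573 and 1061 in the Ccl3 set, higher with Ccl3 in OE-Vector 1, lower in OE-MLKL 1 and 2, and nearly equal in OE-MLKL 3. OE-Vector 1 was the highest library in either set. Within cluster 0, led by S100a9 and Retnlg, which OE-Vector 1 and OE-MLKL 3 shared with 2747 and 2760 cells, Mmp8 was at 326 and 943 and Mmp9 at 1630 and 1138 CPM. In cluster 1, led by Ccl3 and with Mmp9 among its 3 leading genes, shared with 2418 and 2359 cells, Mmp8 was at 18.6 and 127 and Mmp9 at 1784 and 1090. The differences between these 2 libraries were in the same directions within both clusters, with no replicate of either.

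Co-detection of the granule enzymes was weak. Thinned to 1000 UMIs, 71.8% of OE-Vector 1 neutrophils with Mmp8 also had Mmp9, against 68.9% of those without, and in OE-MLKL 1, 2 and 3 the shares were 44.1%, 43.0% and 61.7% against 35.0%, 35.6% and 57.8%. Mmp9 was thus seen a little more often beside Mmp8 in 4 of 4 libraries. Unthinned, the shares were 80.3%, 37.5%, 39.7% and 77.9% against 74.1%, 27.3%, 32.3% and 67.0%.

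Whether the change of a gene differed between classes was tested as an interaction, a test added after the values were seen. The OE-MLKL effect on Mmp8 was more positive in neutrophils than in macrophages by 4.79 ± 0.38 on the log2 scale (edgeR, adjusted p = 0.0036), and Mmp8 was the only member called, 1 of 10, against 0.0142% of 14119 genes, which is 2 genes. For Mmp12 (1.45 ± 0.95, adjusted p = 0.765, and -0.76 without OE-MLKL 3) and Mmp9 (0.80 ± 0.39, adjusted p = 0.691) the difference did not pass. Without OE-MLKL 1, 2 or 3 the Mmp8 difference was 4.56, 4.92 and 4.86, each from 1 residual degree of freedom. Between neutrophils and cancer cells no member was called, against 0.0291% of genes, and between macrophages and cancer cells none, against 0% of genes. In these fits 1 and 5 members had an unadjusted p under 0.05, as did 1538 of 17182 and 819 of 16960 genes. In macrophages outside the Mmp12-led cluster, Mmp8 of OE-Vector 1 was inside the range of the OE-MLKL libraries, and inside the cluster it was above them. The part of those cells and of free RNA in the difference between classes was not tested.

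In monocytes 0 of 10 members passed (edgeR, 0.221% of 9957 genes called, 930 genes and 5 members at an unadjusted p under 0.05). Mmp12 gave -2.30 ± 0.59 (adjusted p = 0.264), Mmp13 -2.98 ± 0.61 (adjusted p = 0.159) and Timp2 1.89 ± 0.47 (adjusted p = 0.254). Timp2 was at 74.2 CPM in OE-Vector 1 and at 367, 221 and 279 in the OE-MLKL libraries, all 3 above it. DESeq2 called Timp2 (adjusted p = 0.00877), against 0.693% of genes, while limma-voom called no member, against 21 of 9957 genes. Macrophage markers in the monocyte gate summed to 4383 CPM in OE-Vector 1 and to 6696, 6933 and 5359 in the OE-MLKL libraries (5 of 12 higher in every OE-MLKL library, 4 lower and none at 0), and neutrophil markers to 871 and to 1475, 2842 and 2154 (6 of 12 higher, 1 lower and none at 0 throughout). Their part in the Timp2 values was not tested. Without OE-MLKL 1, 2 or 3, edgeR called 3, 5 and 5 members, in fits that called 131 of 9596, 291 of 9674 and 712 of 9574 genes. The members' median was 0.08, against 0.04 over all genes.

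Most Timp3 UMIs of monocytes in the OE-MLKL libraries lay in a few cells. It stood at 2.37 CPM in OE-Vector 1 and at 65.3, 27.5 and 354 in OE-MLKL 1, 2 and 3, a log2 fold change of 5.74 ± 1.72 (edgeR, adjusted p = 0.326). Of the monocyte-gated cells, 10, 1 and 4 in the OE-MLKL libraries and none in OE-Vector 1 lay in the collagen-led cluster. Without those 15 cells Timp3 was at 2.37, 3.08, 1.59 and 4.15, on 2 to 4 UMIs per library, and the libraries overlapped. Timp3 was among the leading genes of that cluster, so its fall without these cells is given only as a description.

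In cancer cells 0 of 10 members passed (edgeR, 0% of 17042 genes called, 788 genes and 1 member at an unadjusted p under 0.05). Timp2, with a log2 fold change of 0.79 ± 0.50 (adjusted p = 0.996), was lowest in OE-Vector 1, and thinned to 1000 UMIs it was seen in 35.0% of OE-Vector 1 cancer cells and in 60.3%, 58.1% and 42.4% of those of OE-MLKL 1, 2 and 3, against 93.5%, 99.0%, 98.2% and 92.2% unthinned. Timp1 gave -0.43 ± 0.42 and Mmp14 0.13 ± 0.29, and neither passed. OE-Vector 1 was above the OE-MLKL range for Timp1 (161 CPM against 92.9 to 156) and below it for Mmp14 (148 against 153 to 213). Mmp13, at 2.15 CPM in OE-Vector 1 and 0.123, 0.110 and 0.227 in the OE-MLKL libraries, gave -3.94 ± 0.61 (adjusted p = 0.774). DESeq2 called it, against 0.528% of genes, and limma-voom called no member, against 0 of 17042 genes. Free RNA carried Mmp13 at 29.8, 1.32, 1.92 and 3.72 CPM, above the cancer value in each library, with OE-Vector 1 highest and OE-MLKL 3 next in both.

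In T/NK cells 0 of 7 members tested passed (edgeR, 0% of 11311 genes called, 444 genes and 3 members at an unadjusted p under 0.05, and DESeq2 0.0530% of genes and no member). In B cells Timp2, the 1 member with enough UMIs, gave 1.52 ± 0.57 (adjusted p = 0.891) and did not pass, against 0.226% of genes with edgeR and 0.0969% with DESeq2. Mmp12 in T/NK cells gave -3.87 ± 0.88 (adjusted p = 0.767), on levels of 9.24, 0, 0.464 and 1.18 CPM, where 3 UMIs would have given 1.36 in the library at 0. Dendritic, stromal and endothelial cells had under 50 cells in at least 1 library and were not tested. Among stromal values, Timp1 of OE-Vector 1, at 812, lay above the OE-MLKL range of 209 to 310 CPM. Mmp2 at 1274 lay below 1370 to 2444 and Mmp14 at 331 below 355 to 510. Mmp12 and Mmp13, low at 7.45 each, lay above the OE-MLKL libraries, and the other members lay within their range.

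The other genes of the proteolytic network, 50 genes in 4 lists (16 other metalloproteinases, 8 other inhibitors or regulators, 13 activators or partners and 13 related ADAM, ADAMTS and BMP1 proteases), passed the test in no class. With OE-MLKL against OE-Vector, 0 of 28 tested in neutrophils, 0 of 29 in macrophages, 0 of 23 in monocytes, 0 of 20 in T/NK cells, 0 of 5 in B cells and 0 of 39 in cancer cells passed with edgeR, and 6, 5, 7, 4, 0 and 2 of them had an unadjusted p under 0.05, as did 1013 of 12672, 790 of 13543, 930 of 9957, 444 of 11311, 140 of 3097 and 788 of 17042 genes in all. DESeq2 called Adam19 in neutrophils and Lcn2 in cancer cells, and limma-voom called none. In macrophages the 3 of smallest p were Mmp10 (-5.90 ± 1.16, adjusted p = 0.555), Bsg, which induces metalloproteinases in neighbouring cells (-1.04 ± 0.29, adjusted p = 0.714), and Mmp27 (-2.15 ± 0.71, adjusted p = 0.818). Mmp10, between Mmp12 and Mmp8 on chromosome 9, had 28 UMIs in OE-Vector 1 macrophages and 0, 0 and 1 in OE-MLKL 1, 2 and 3, whereas Mmp3 beside it had 0, 2, 1 and 3. In neutrophils they were Adam19 (2.25 ± 0.54), Adamts1 (1.60 ± 0.44) and Adam17, the TNF-releasing protease (-1.38 ± 0.40), each with an adjusted p of 0.563. In cancer cells Lcn2, whose protein binds Mmp9, gave -1.47 ± 0.27 (adjusted p = 0.901) and Adamts5 -1.94 ± 0.50 (adjusted p = 0.996). In monocytes they were Adamts1, Adam17 and Bmp1, in T/NK cells Itgb3, Furin and Spock2, and in B cells Cd44, Lcn2 and Adam10, with adjusted p from 0.413 to 0.9998.

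Between classes the same network differed widely, as did the rest of the genes. Of 35 tested, 14 were higher and 8 lower in neutrophils than in macrophages, 14 higher and 16 lower in macrophages than in cancer cells, and 13 higher and 16 lower in neutrophils than in cancer cells, where 69.0%, 68.2% and 80.2% of all genes tested differed. Lcn2 stood in neutrophils at 865 CPM in OE-Vector 1 against 3205, 2452 and 1080 in OE-MLKL 1, 2 and 3. Mmp25, the membrane-bound metalloproteinase of leukocytes, stood there at 39.9, 19.9, 35.4 and 35.2, with OE-Vector 1 the highest, as for Mmp9.

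The genes whose levels over 24 points (6 classes in 4 libraries) were most like each member were named by Pearson's correlation of log2 levels, as a description, since points of 1 library share depth. For Mmp8 they were Grina, Cers6 and Mcemp1 (r = 0.942, 0.939 and 0.933), and for Mmp9 Hdc, Csf3r and Siglecf (0.958, 0.956 and 0.951), of which Hdc and Csf3r are markers of the neutrophil gate. For Mmp12 they were Pf4, Ccl24 and Gatm (0.914, 0.914 and 0.896) and for Mmp13 Nr1h3, Mmp12 and Pf4 (0.923, 0.893 and 0.890), so Pf4 was in both and Mmp12 was itself second for Mmp13. Mmp14 was most like Plxnb2, Smad1 and Ldlrad3 (0.970, 0.949 and 0.942) and Mmp19 like Serpinb8 and Ecm1 (0.953 and 0.952). Timp1 was most like Wnt4, Prss23 and Wwtr1 (0.938, 0.933 and 0.916), Timp2 like Mid1ip1, Ptov1 and Cd63 (0.922, 0.919 and 0.915) and Timp3 like Meg3, Aebp1 and Col3a1 (0.923, 0.889 and 0.877). Mmp2 did not reach the mean of 5 CPM that the naming asked for.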

How the data were processed

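The authors deposited, per library, an unfiltered matrix of raw UMI counts for 32285 genes. The headers of the 4 matrices analysed here name Cell Ranger 7.1.0. The methods name cellranger 3.1.0 with the reference mm10-3.0.0, and the submitters' processing notes Cell Ranger 2.1.1 with mm10. These sources disagree, and only the headers belong to the counts themselves. The labels name the older 3' chemistry, while the matrices hold 2295176 to 2991965 barcodes per library. Whether that label is right was not tested. Whether intronic reads were counted was not given in the sources used here, and levels across genes may depend on it. The methods state 3 mice per group.

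Barcodes were kept as cells with at least 500 UMIs, at least 200 genes, at most 10% mitochondrial and at most 5% haemoglobin UMIs. Doublets were removed at an assumed 0.8% per 1000 cells, 11363 in all, which left 63182 cells. Cells were gated by marker lists (at least 3 markers, score at least 0.5, a second class at 0.6 of the first marking a cell as 2 classes), and 5902 cells lay near the limit of the score. Cells were also clustered (scanpy 1.11.5, 2000 variable genes, 10 components, 20 neighbours, Leiden resolution 1, 20 clusters). Doublets, clusters and gates use the whole transcriptome, and none of the 10 members was a gate marker.

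The UMIs of each class were added up within a library, and the sums were tested for classes with at least 50 cells in every library with edgeR 4.0.16 (R 4.3.3, quasi-likelihood test, TMM scaling, low counts filtered, Benjamini-Hochberg adjustment at 0.05 over all genes tested). OE-MLKL against OE-Vector fits had 2 residual degrees of freedom with all 4 libraries and 1 with an OE-MLKL library left out, all from OE-MLKL. DESeq2 1.42.0, limma 3.58.1 (voom), library size alone, no filter, at least 1000 UMIs and 500 genes per cell, clusters in place of gates, doublets kept, free RNA subtracted and each library left out were the alternatives. The edgeR script was tested on simulated data. Poisson and binomial intervals are exact (scipy 1.17.1) and cover counting error only. The limit for a count of 0 is 3 UMIs. The members, marker lists, pathway lists and tests were chosen with earlier results of these data known. Named pathway genes are the 3 of smallest p per class over the 4 lists, and like genes the 3 of highest correlation per member, over classes tested and with a mean of at least 5 CPM. The differences of effect between classes and the splits by the Mmp12-led and collagen-led clusters were added after the values were seen. Of the genes these rules name, 2 are not reported here. Start windows matched 7 of the 10 members.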

Additional observations from a re-analysis of the deposited data

Results flagged for a closer look

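The effect of OE-MLKL on Mmp8 differed between neutrophils and macrophages by 4.79 on the log2 scale (edgeR, adjusted p = 0.0036), since Mmp8 was higher than in OE-Vector 1 in 3 of 3 OE-MLKL libraries in neutrophils and lower in 3 of 3 in macrophages. The difference was tested as an interaction, with the single OE-Vector library shared by both effects. Outside the Mmp12-led cluster, macrophages of OE-Vector 1 had Mmp8 at 5.82 CPM, within the 5.71 to 8.41 of the OE-MLKL libraries. Free RNA carried Mmp8 at 31.0, 42.7, 43.7 and 56.7 CPM in OE-Vector 1 and OE-MLKL 1, 2 and 3. It was an estimated 8.79% to 10.3% of macrophage UMIs, and its part in these low values was not tested.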

How the results depend on the processing

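There was 1 OE-Vector library, and the members called depended on the fit. With edgeR 1 member was called in macrophages and 0 in each other class. DESeq2 called 3 in macrophages and 1 each in neutrophils, monocytes and cancer cells. Without a filter on low counts 3 were called in macrophages, 4 in monocytes and 1 each in neutrophils and T/NK cells, in fits that called 32 of 19951, 281 of 16256, 39 of 19509 and 28 of 18162 genes, and with doublets kept 1 in B cells, where 33 of 3579 genes were called. The macrophage count was 0 with clusters in place of gates, with free RNA subtracted and with limma-voom. These fits called 4 of 13770, 0 of 12839 and 0 of 13543 genes in all. When each OE-MLKL library was left out in turn, 0 to 6 members were called in macrophages, 3 to 5 in monocytes, 0 to 4 in neutrophils, 0 to 3 in cancer cells and 0 to 2 in T/NK cells. Without OE-MLKL 3, 442 genes in all passed in macrophages, 1862 in neutrophils, 712 in monocytes, 797 in cancer cells, 834 in T/NK cells and 65 in B cells, against 3, 0, 22, 0, 0 and 7 with it. The cause was not tested.

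Directions turned for small values. Between the groups these were Timp3 in cancer cells (limma-voom -0.0017, -0.45 to 0.43 with 1 library left out), Mmp14 in macrophages (limma-voom -0.014, left out -0.18 to 0.16), Timp2 in macrophages (left out -0.0589 to 0.31, with -0.0156 without OE-MLKL 1) and, in monocytes, Mmp14 (left out -0.36 to 0.0394), Mmp2 (limma-voom -0.15) and Mmp9 (left out -0.78 to 0.11). In neutrophils they were Mmp14 (left out -0.0496 to 0.98), Mmp2 (clusters -0.37, left out -0.60 to 0.76) and Timp2 (free RNA subtracted -0.21). Between classes they were Timp2 in macrophages against cancer cells (clusters -0.0985, library size alone -0.24, left out -0.14 to 0.14), Timp3 in neutrophils against cancer cells (clusters -0.32, library size alone -0.11, left out -0.12 to 0.67) and Timp1 in neutrophils against macrophages (at least 1000 UMIs 0.029, doublets kept 0.0556, left out -0.35 to 0.33). None of these had passed the test. Of the other single-gene values, 445 between groups and 277 between classes kept direction and side of the threshold, 45 and 1 came to pass, and 4 and 12 no longer passed. Clusters gave no monocyte value and the 1000 UMI minimum no B cell value. With library size alone the median of all genes was 0.27 in neutrophils, 0.15 in macrophages, 0.14 in cancer cells, 0.13 in monocytes and -0.11 in B cells, against 0.04, 0.04, 0.03, 0.04 and 0.05 with TMM.

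No paired analysis was possible because OE-Vector had 1 library, so OE-MLKL against OE-Vector shares a single replicate number. Between classes the main fit held library as a block, and without this replicate block 9 members were called between neutrophils and macrophages, 7 between macrophages and cancer cells and 6 between neutrophils and cancer cells, in fits that called 7820, 7502 and 10015 of 13877 genes.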
